A study of Mus musculus with 6 samples.

Results

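Matrix metalloproteinases and their tissue inhibitors, the TIMPs, were examined in the kidney of lupus-prone mice. The 10 genes were Mmp2, Mmp3, Mmp7, Mmp9, Mmp12, Mmp13, Mmp14, Timp1, Timp2 and Timp3. They are 10 of 36870 gene names on the array, and every probe that carries such a name in the array annotation and is not a control was taken, which gave 17 of 56605 probes. The transcriptome analysis (TA) used whole kidneys of 3 female MRL/MpJ mice (MRL mice, the controls) and 3 female MRL/MpJ-Fas lpr/lpr mice (LPR mice, which carry a mutation of the death receptor gene Fas on the same background). All mice were 6 months of age, kept free of specific pathogens and given no agent, and each gave 1 array of the same slide. The labels do not tell whether the animals of a group were littermates. A whole kidney holds tubules, glomeruli, vessels and any infiltrating cells, so that fewer cells of a type and less RNA per cell cannot be told apart.

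Matrix metalloproteinases are zinc-dependent enzymes that cut collagens, proteoglycans, adhesion molecules and cytokines outside the cell or at its surface. Most are secreted as proenzymes that other proteinases activate, and the TIMPs block the active enzyme by binding its catalytic site. In the kidney they take part in the turnover of basement membranes and interstitial matrix, and in inflammation they are made by infiltrating leukocytes, fibroblasts and injured tubules as well as by resident cells.

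Values are log2 signals relative to the 75th percentile of the array, so that 0 is this percentile and a negative value is dimmer. A change is LPR minus MRL on the log2 scale, tested by limma with Benjamini-Hochberg adjustment and a threshold of 0.05. The adjustment ran over the 39924 probes with a signal well above background in 3 or more of the 6 mice. Between 69.6% and 73.5% of the spots of an array were well above background and none was saturated. Arrays of the same group correlated across probes with a Pearson's r of 0.990 to 0.993 and arrays of different groups with 0.961 to 0.971, where probes do not count as independent replicates. Of the 2 probes of Fas, the brighter one had a log2 change of -0.47 without passing (adjusted p = 0.234 from limma). The other was higher in LPR mice, with a log2 change of 1.89 (adjusted p = 0.0338 from limma). It had 0 of 3 MRL arrays well above background, so that it was tested only through the LPR arrays. Its rise was 1.47-fold with the MRL signals lifted to the dimmest signal of their array still well above background. Over all tested probes the median log2 change was -0.14, which is given for comparison only, since limma tested each change against 0.

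Mmp3, Timp1 and Mmp14 rose in the LPR kidney. So did 1 of the 3 probes of Mmp12 and 1 of the 2 probes of Mmp7, of Timp2 and of Mmp9. The calls of Mmp12, Mmp7 and Mmp9 were lost under some of the processing alternatives. The largest rise was that of the stromelysin Mmp3, at 13.9-fold, except with normexp correction, where its log2 change (2.00) was below that of Timp1 (2.24). The matrilysin Mmp7 rose by 7.33-fold at its dimmer probe and the inhibitor Timp1 by 5.89-fold. The order of these 2 turned without MRL 1, with the slide column as a block, with normexp correction and with the Mmp7 probes averaged. At the brighter Mmp7 probe the change was 2.28-fold and did not pass in limma (adjusted p = 0.0569). No probe of the 10 genes fell. Mmp2, Mmp13 and Timp3 did not pass the threshold at any probe.

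Of the 17 probes, 14 were bright enough to be tested. In limma 7 of the 14 were higher in LPR mice, beside 6.53% of all tested probes, and 0 were lower, beside 6.17% of all. At an unadjusted p under 0.05 in limma, 10 were higher and 0 were lower, beside 9.83% and 20.5% of all tested probes. The methods' t-test with the same adjustment called 4 higher and 0 lower. At 10 probes every LPR mouse exceeded every MRL mouse and at 1 probe every LPR mouse was lower, beside 11.0% and 26.9% of all tested probes. By the brightest tested probe of each gene, 5 of the 10 genes were higher, beside 7.12% of 25805 genes, and 0 were lower, beside 5.47%. Without MRL 1, MRL 3 or LPR 3 the number of higher genes was 3. The tested Mmp9 probe is among the 7 probes and 5 genes, and it was bright enough to be tested only through the LPR arrays. Without it 6 of 13 probes and 4 of 9 genes were higher. The median log2 change was 1.08 over the 14 probes and 1.13 over the 10 genes, and 0.96 and 1.00 with the Mmp9 probe, whose MRL signals were at background, set to its lower bound. Over all genes the median was -0.12.

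**Figure D1:**
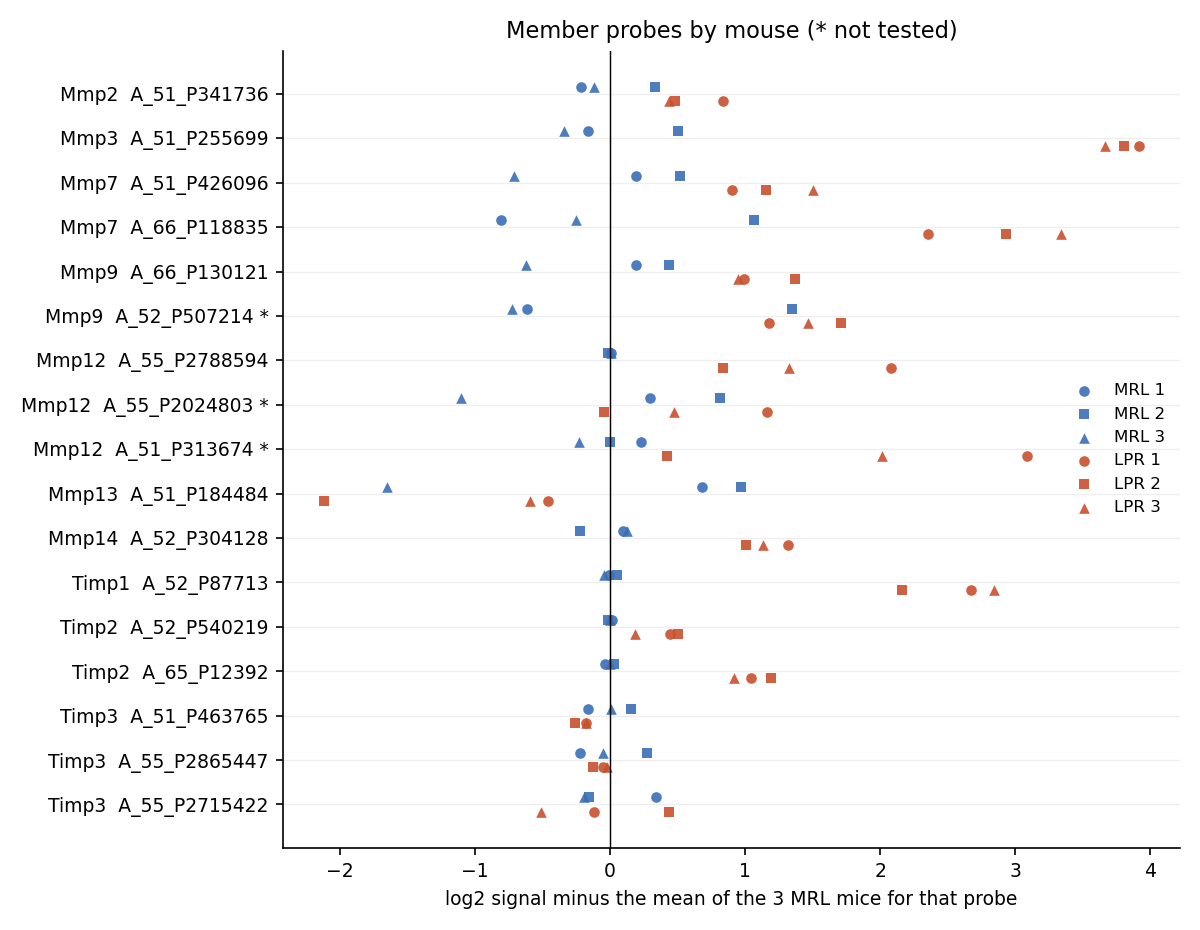
Each row is 1 of the 17 member probes, and the x axis is the log2 signal of a mouse minus the mean of the 3 MRL mice for that probe. Blue symbols are MRL mice and red symbols are LPR mice, the circle, square and triangle stand for mouse 1, 2 and 3, and an asterisk marks the 3 probes that were too dim to be tested. The LPR mice of Mmp3 and Timp1 lie far to the right of the MRL mice, whereas the groups of Mmp13 and of 2 Timp3 probes overlap.

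The plot of single mice shows that the mice of 1 group lay close together for Timp2 and Mmp14. For Timp1 the MRL mice were close together (SD 0.05) and the LPR mice farther apart (SD 0.36). The MRL mice were farther apart for the dim probes of Mmp7, Mmp9 and Mmp13. The plot of changes sets the 14 tested probes against the median of all probes, with the 7 probes that passed above those that did not, apart from the brighter Mmp7 probe.

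**Figure D2:**
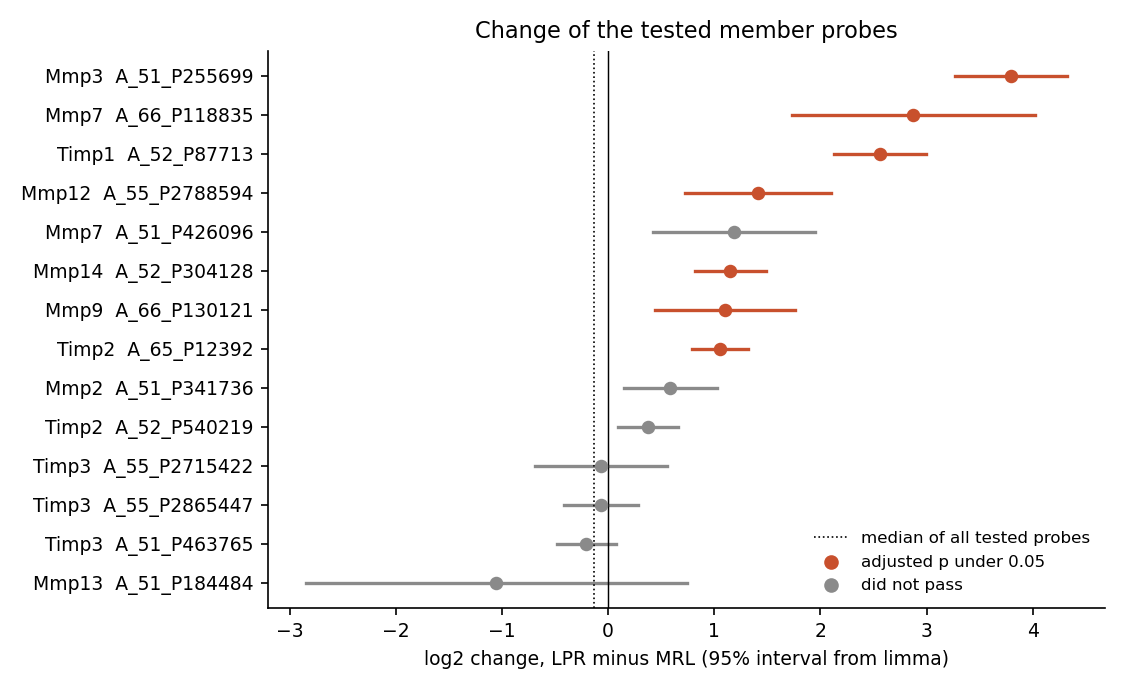
Log2 change (LPR minus MRL) of the 14 tested member probes with the 95% interval from limma, in order of size. Red marks probes with an adjusted p under 0.05, grey those that did not pass, and the dotted line is the median of all tested probes, -0.14. The intervals of Mmp3 (3.27 to 4.32) and Timp1 (2.13 to 2.99) lie far above 0, and that of Mmp13 (-2.85 to 0.74) is the widest.

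Mmp2 and Mmp9 are the gelatinases, which cut denatured collagen and the type IV collagen of basement membranes. Mmp2 is made mainly by stromal cells and Mmp9 by neutrophils, macrophages and other activated cells. The Mmp2 probe A_51_P341736 (mm9, chr8:95376840-95376899) gave log2 signals of -1.73, -1.18 and -1.64 in MRL 1, 2 and 3 and of -0.68, -1.03 and -1.08 in LPR 1, 2 and 3. The groups did not overlap, but LPR 2 and LPR 3 were only a small step above MRL 2. With a standard error of 0.18 and a 95% interval of 0.15 to 1.02, the log2 change of 0.58 missed the threshold in limma (adjusted p = 0.0861). It passed with normexp background correction (0.47, adjusted p = 0.0351) and with an intensity trend (0.58, adjusted p = 0.0451).

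Mmp9 was dim. Its probe A_66_P130121 spans an exon junction, since its 60 bases are placed on 1210 bases of the genome (mm9, chr2:164779091-164780300), so that it reads spliced RNA. The sequence is shown because the Mmp9 result rests on this single tested probe.
Mmp9 A_66_P130121: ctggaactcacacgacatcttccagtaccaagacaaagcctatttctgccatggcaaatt
It gave log2 signals of -5.89, -5.64 and -6.70 in MRL 1, 2 and 3 and of -5.08, -4.70 and -5.12 in LPR 1, 2 and 3. It was well above background on 0 of 3 MRL arrays and 3 of 3 LPR arrays, and the groups did not overlap. Limma tested the signals as measured, with a log2 change of 1.10 (adjusted p = 0.0468). Since the MRL signals were at background, the rise is given as a bound of 1.81-fold. This bound sets the LPR mean against MRL signals lifted, where lower, to the dimmest signal of their array still well above background. It holds for this processing only.

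This call was close to the threshold and was lost under 10 of 18 alternatives. It was lost without MRL 1 (adjusted p = 0.0918), MRL 3 (adjusted p = 0.0558), LPR 1 (adjusted p = 0.0928), LPR 2 (adjusted p = 0.109) or LPR 3 (adjusted p = 0.0931), and with normexp correction the log2 change was 0.10. The other Mmp9 probe, A_52_P507214 (chr2:164780620-164780679), was well above background in LPR 1 and LPR 2 and in no MRL mouse, and it was not tested. Its log2 signals were -7.86, -5.90 and -7.97 in MRL 1, 2 and 3 and -6.07, -5.54 and -5.78 in LPR 1, 2 and 3, so MRL 2 lay within the range of the LPR mice.

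Mmp3, or stromelysin 1, has a broad range of substrates and also activates other proenzymes of the family. The probe A_51_P255699 (chr9:7455751-7455810) gave log2 signals of -5.27, -4.60 and -5.44 in MRL 1, 2 and 3 and of -1.19, -1.30 and -1.44 in LPR 1, 2 and 3. The lowest LPR mouse lay far above the highest MRL mouse, and the LPR mice were close to each other. The group means were -5.10 ± 0.44 (SD, n = 3) and -1.31 ± 0.13 (SD, n = 3), both measured well above background on all arrays. The log2 change of 3.79 (standard error 0.22, 13.9-fold) had an adjusted p of 9.38e-05 in limma. It passed under all 19 alternatives, with a log2 change of 3.63 to 4.05 when 1 mouse was left out and the smallest value, 2.00, with normexp correction.

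Mmp7, or matrilysin, lacks the hemopexin domain of its relatives and is made by epithelial cells, in the kidney by injured tubules. Its probes A_51_P426096 (chr9:7697641-7697700) and A_66_P118835 (chr9:7699476-7699535) both showed the groups without overlap and the LPR mice higher. The first, which is the brighter over the 6 arrays, gave log2 signals of -3.86, -3.54 and -4.77 in MRL 1, 2 and 3 and of -3.15, -2.90 and -2.55 in LPR 1, 2 and 3. MRL 3 was the lowest mouse. The rise of 1.19 on the log2 scale (standard error 0.32, 95% interval 0.42 to 1.95), or 2.28-fold, fell short of the threshold in limma (adjusted p = 0.0569). It passed under 6 of 19 alternatives, among them leaving out MRL 2 (1.45, adjusted p = 0.0438).

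The second Mmp7 probe gave -6.04, -4.17 and -5.49 in MRL 1, 2 and 3 and -2.88, -2.30 and -1.90 in LPR 1, 2 and 3. Among MRL mice 2 of 3 were well above background. Its log2 change of 2.87 (standard error 0.48, 7.33-fold) passed in limma (adjusted p = 0.0112), also when any 1 mouse was left out. The call was lost with the methods' t-test (adjusted p = 0.0811) and with the slide column as a block, which leaves LPR 1 alone against the MRL mice (adjusted p = 0.133). With normexp correction the log2 change was 1.18. With both probes averaged, Mmp7 rose by 2.03 on the log2 scale (standard error 0.36, adjusted p = 0.0143). The probes of Mmp7 therefore shared the direction and differed in size, and the cause was not tested.

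Mmp12, the macrophage elastase, cuts elastin and is made mainly by macrophages. The brightest of its 3 probes, A_55_P2788594 (chr9:7358559-7358618), gave log2 signals of -4.53, -4.55 and -4.53 in MRL 1, 2 and 3 and of -2.46, -3.70 and -3.21 in LPR 1, 2 and 3. The MRL mice were nearly equal, and the LPR mice were all higher and spread widely, with LPR 1 the highest. The log2 change was 1.41 (standard error 0.29, 2.66-fold, adjusted p = 0.0244 from limma). The call was lost under 6 of 19 alternatives, among them leaving out MRL 1 (adjusted p = 0.0754), MRL 2 (adjusted p = 0.0694), MRL 3 (adjusted p = 0.0685) or LPR 3 (adjusted p = 0.0643), with a log2 change of 1.08 to 1.70 over all mice left out in turn. With normexp correction the log2 change was 0.59, which passed (adjusted p = 0.0166).

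The other Mmp12 probes were too dim to be tested. A_51_P313674, which spans a junction (chr9:7354810-7355325), gave log2 signals of -7.70, -7.93 and -8.15 in MRL 1, 2 and 3 and of -4.84, -7.50 and -5.91 in LPR 1, 2 and 3. The LPR mice were all above the MRL mice there, and LPR 1 was again the highest and LPR 2 the lowest of its group, but only LPR 1 and LPR 3 were well above background. A_55_P2024803 (chr9:7352935-7352994) was well above background in MRL 2 and LPR 1, and its groups overlapped (-7.42 to -5.50 in MRL mice and -6.36 to -5.15 in LPR mice).

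Mmp13 is the main interstitial collagenase of rodents. The probe A_51_P184484 (chr9:7282762-7282821) gave log2 signals of -4.26, -3.97 and -6.60 in MRL 1, 2 and 3 and of -5.40, -7.06 and -5.53 in LPR 1, 2 and 3. It was well above background in MRL 1, MRL 2, LPR 1 and LPR 3, and the groups overlapped, with LPR 2 the lowest and MRL 2 the highest mouse. Its log2 change was -1.06 with a standard error of 0.76, and did not pass in limma (adjusted p = 0.382). The 95% interval of -2.85 to 0.74 leaves room for either direction. Without MRL 3 the log2 change was -1.88 (adjusted p = 0.0846), and it was -0.52 without LPR 2, -0.57 without MRL 2, and -0.42 with normexp correction.

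Mmp14 is a membrane-bound metalloproteinase that cuts fibrillar collagen at the cell surface and, together with Timp2, activates the Mmp2 proenzyme. The probe A_52_P304128 (chr14:55058775-55058834) gave log2 signals of -3.31, -3.63 and -3.28 in MRL 1, 2 and 3 and of -2.09, -2.40 and -2.27 in LPR 1, 2 and 3. The groups were well apart, with a small spread in each. Mmp14 changed by 1.15 on the log2 scale (standard error 0.14, 2.22-fold), which had an adjusted p of 0.00279 in limma and passed under all 19 alternatives (0.68 to 1.32).

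Among the inhibitors, Timp1 was the one with the largest change. Timp1 is a secreted inhibitor of most soluble metalloproteinases and is induced in inflamed and scarring tissue. The probe A_52_P87713 (chrX:20451675-20451733) gave log2 signals of -1.94, -1.88 and -1.98 in MRL 1, 2 and 3 and of 0.74, 0.22 and 0.91 in LPR 1, 2 and 3. The MRL mice were almost the same, and all LPR mice were higher, with LPR 2 the lowest of them. Timp1 changed by 2.56 on the log2 scale (standard error 0.18, 5.89-fold), which had an adjusted p of 0.000220 in limma and passed under all 19 alternatives (2.24 to 2.76).

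Timp2, which is made in most tissues and both inhibits metalloproteinases and helps Mmp14 to activate Mmp2, was measured by 2 probes that differed in size of change. A_52_P540219 (chr11:118163146-118163205), the brighter one, gave log2 signals of 3.95, 3.92 and 3.93 in MRL 1, 2 and 3 and of 4.38, 4.43 and 4.11 in LPR 1, 2 and 3. The LPR mice were all above the MRL mice, LPR 3 by the smallest step. Here the change of 0.38 (standard error 0.12, 95% interval 0.10 to 0.66), or 1.30-fold, did not pass in limma (adjusted p = 0.0850), but passed with normexp correction (adjusted p = 0.0310) and with an intensity trend (adjusted p = 0.0429).

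The other Timp2 probe spans a junction, with its 60 bases placed on 6778 bases of chromosome 11 (chr11:118171964-118178741), and is shown because it carries the Timp2 call.
Timp2 A_65_P12392: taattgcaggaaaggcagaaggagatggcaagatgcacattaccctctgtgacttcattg
It gave log2 signals of -0.86, -0.80 and -0.83 in MRL 1, 2 and 3 and of 0.22, 0.37 and 0.09 in LPR 1, 2 and 3, with no overlap and a small spread in both groups. Its log2 change of 1.05 (standard error 0.11, 2.07-fold, adjusted p = 0.00130 from limma) passed under all 19 alternatives (0.95 to 1.12). Averaged over both probes Timp2 rose by 0.71 on the log2 scale (standard error 0.11, adjusted p = 0.00734). Neither probe resembles another member probe, as the longest run of bases shared by any 2 of the 17 probes was 9.

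Timp3, an inhibitor that binds to the matrix and that also blocks ADAM proteinases, is abundant in the kidney. Its brightest probe A_51_P463765 (chr10:85811696-85811755) gave log2 signals of 6.72, 7.03 and 6.89 in MRL 1, 2 and 3 and of 6.70, 6.62 and 6.70 in LPR 1, 2 and 3. The LPR mice all lay just below the MRL mice, as at 26.9% of all tested probes. At this probe the log2 change of -0.21 (standard error 0.12, 95% interval -0.48 to 0.07) did not pass in limma (adjusted p = 0.276) and was close to the median of all probes. At A_55_P2865447 (chr10:85812041-85812100) the groups overlapped, with a log2 change of -0.07 (95% interval -0.41 to 0.28, adjusted p = 0.787). At A_55_P2715422 (chr10:85769407-85769466), annotated to another Timp3 transcript, they overlapped too (-0.06, 95% interval -0.69 to 0.56, adjusted p = 0.891). The probes of Syn3, the synapsin gene on chromosome 10 that encloses Timp3, had log2 changes of -1.08 to 0.13, and 0 of its 6 probes passed in limma.

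Mmp3, Mmp7, Mmp12 and Mmp13 belong to a cluster of metalloproteinase genes on chromosome 9. The probes of 10 Mmp genes lie there within 415 kb (mm9, chr9:7282762-7697700), in the order Mmp13, Mmp12, Mmp1b, Mmp3, Mmp1a, Mmp10, Mmp8, Mmp27, Mmp20 and Mmp7. Of these, 5 were bright enough to be tested, 2 were higher by their brightest probe and 0 were lower, beside 7.12% and 5.47% of all tested genes. The dimmer probe of Mmp7 was higher too (2.87, adjusted p = 0.0112 from limma) and is not in this count. Mmp8, the neutrophil collagenase, had a log2 change of 0.33 and did not pass (adjusted p = 0.233 from limma). Mmp1a, Mmp1b and Mmp20 were not well above background on any array, Mmp10 on 1 LPR array and Mmp27 on 2 LPR arrays. Of the neighbours of the raised genes Mmp12 and Mmp3, Mmp13 thus did not pass, and Mmp1b and Mmp1a were too dim to be tested.

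**Figure D3:**
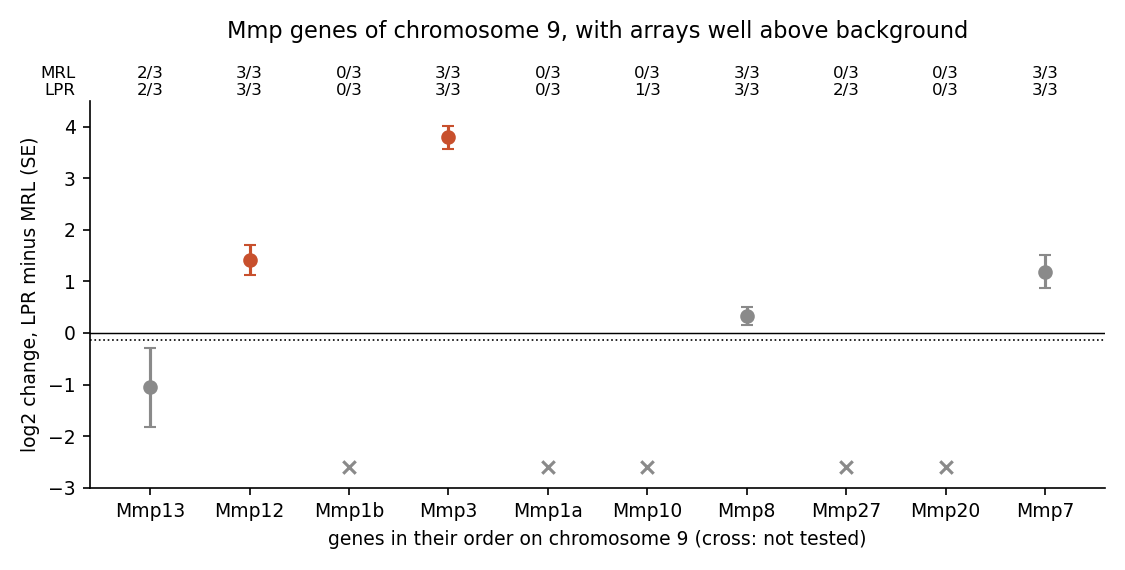
Log2 change (LPR minus MRL) with its standard error for the brightest probe of the 10 Mmp genes on chromosome 9, in their order on the chromosome. Red marks an adjusted p under 0.05, grey points did not pass, crosses are genes that were not tested (their height has no meaning), the numbers above give the arrays of each group well above background, and the dotted line is the median of all tested probes. Mmp3 (3.79) and Mmp12 (1.41) passed. The dimmer probe of Mmp7, which is not drawn, passed as well.

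The AP-1 site, a motif bound by dimers of Fos and Jun proteins, is a known feature of many metalloproteinase promoters. The letters TGAGTCA, or their reverse complement TGACTCA, were searched on both strands in the 250 bases before the RefSeq start site (GRCm38.p6). The motif was found in 4.46% of all 32851 windows, or in 1395 of 27025 genes (5.16%). All 4 members on chromosome 9 had it in a window, as did 3 of the 6 other Mmp genes of the cluster (Mmp1b, Mmp1a and Mmp10). It was not in the windows of Mmp14, Timp1, Timp2 and Timp3, and the table gave no window for Mmp2 and Mmp9. The 100 bases before the start are shown for the 4 cluster members, 2 of which rose by their brightest probe, and for Timp1, which rose without these letters in its window. All are on the plus strand, and the capitals mark the motif.
Mmp3 (chr9:7445722-7445821): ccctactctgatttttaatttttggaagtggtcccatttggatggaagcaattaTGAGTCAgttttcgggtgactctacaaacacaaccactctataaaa
Mmp7 (chr9:7691990-7692089): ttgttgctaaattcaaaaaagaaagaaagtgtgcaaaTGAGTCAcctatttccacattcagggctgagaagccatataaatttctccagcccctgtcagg
Mmp12 (chr9:7347274-7347373): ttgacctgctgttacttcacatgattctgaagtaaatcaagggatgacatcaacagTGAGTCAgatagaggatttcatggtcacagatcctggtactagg
Mmp13 (chr9:7272414-7272513): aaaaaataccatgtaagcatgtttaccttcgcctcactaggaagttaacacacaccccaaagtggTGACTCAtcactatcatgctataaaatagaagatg
Timp1 (chrX:20870066-20870165): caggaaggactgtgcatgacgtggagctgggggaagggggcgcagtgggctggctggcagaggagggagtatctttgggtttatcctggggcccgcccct

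Counted from the start site, the first base of the motif lay at -46 in Mmp3, -63 in Mmp7, -44 in Mmp12 and -35 in Mmp13. Mmp7 and Mmp12 each have a second annotated start whose window lacks it. A match of letters is a description of the sequence and not a measured site. Only these exact letters were searched, so that a window without them, as that of Timp1, may hold other forms of the motif. Of the 7 AP-1 subunit genes, 6 were tested and 0 passed in limma in either direction by the brightest probe (2 higher at an unadjusted p under 0.05), with a median log2 change of 0.17. Fos was 0.80 (adjusted p = 0.109) and Junb 0.69 (adjusted p = 0.113), both named after their values were seen. The other tested Junb probe, A_55_P2011106, was higher (0.94, adjusted p = 0.0359).

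The other genes of the same system were described with lists of 69 genes, of which 58 were tested. Of these, 11 were higher, 2 were lower and 45 did not pass in limma. Of all tested genes 7.12% were higher and 5.47% lower, which also serves as the comparison for the single lists below. The median log2 change was 0.12 beside 1.13 for the members and -0.12 for all genes. Higher were 6 genes without MRL 3 or LPR 1 and 7 without MRL 2 or LPR 3, and lower were 0 without MRL 1, MRL 3 or LPR 3 and 1 without MRL 2 or LPR 2. Among 16 other matrix metalloproteinases 8 were tested. Mmp19, which is expressed in macrophages and fibroblasts, rose by 1.57 on the log2 scale (2.98-fold, adjusted p = 0.00497) at 1 of 2 tested probes, and Mmp23 rose by 0.69 (1.62-fold, adjusted p = 0.0318). The call of Mmp23 was lost without LPR 1 or any MRL mouse (adjusted p = 0.0675 to 0.0961). In limma 0 of the 8 were lower, also at an unadjusted p under 0.05, and their median was 0.39. Among the 5 other inhibitors (Timp4, Reck, A2m, Pzp and Tfpi2) 0 passed in limma in either direction, also at an unadjusted p under 0.05, and the median was -0.06.

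Of the 10 genes for activation of proenzymes and for the plasminogen system, 9 were tested, and 2 were higher and 2 were lower. Serpine2, an inhibitor of serine proteinases, rose by 0.53 on the log2 scale (1.44-fold, adjusted p = 0.0359) at 1 of 2 tested probes. The tissue plasminogen activator Plat fell by 0.57 on the log2 scale (adjusted p = 0.0431), also at 1 of 2 tested probes, and the plasmin inhibitor Serpinf2 fell by 1.08 (adjusted p = 0.0256). These genes thus include inhibitors in both directions, and each of the named calls was lost in part when 1 mouse was left out. Serpine2 lost it without LPR 1, LPR 3 or any MRL mouse, Plat without LPR 2, LPR 3 or any MRL mouse, and Serpinf2 without MRL 1, MRL 3, LPR 1 or LPR 3.

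Of 21 ADAM and ADAMTS proteinases, relatives that shed membrane proteins or process matrix, 20 were tested, 4 were higher and 0 were lower, with a median of 0.06. Adam8, a sheddase of leukocytes, rose by 2.77 (6.81-fold, adjusted p = 8.04e-05), Adam19 rose by 1.88 (3.69-fold, adjusted p = 0.000123) and Adamts2, the procollagen N-proteinase, rose by 1.35 (2.55-fold, adjusted p = 0.00130), all on the log2 scale. Of 10 substrates other than collagen, 3 were higher and 0 were lower, with a median of 0.49. These were the small proteoglycans Lum (1.23, adjusted p = 0.00213), Dcn (0.85, adjusted p = 0.00639) and Bgn (0.51, adjusted p = 0.0253). Adamts2 and Bgn each passed at 1 of 3 tested probes. The call of Bgn was lost without LPR 1, LPR 3 or any MRL mouse.

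**Figure D4:**
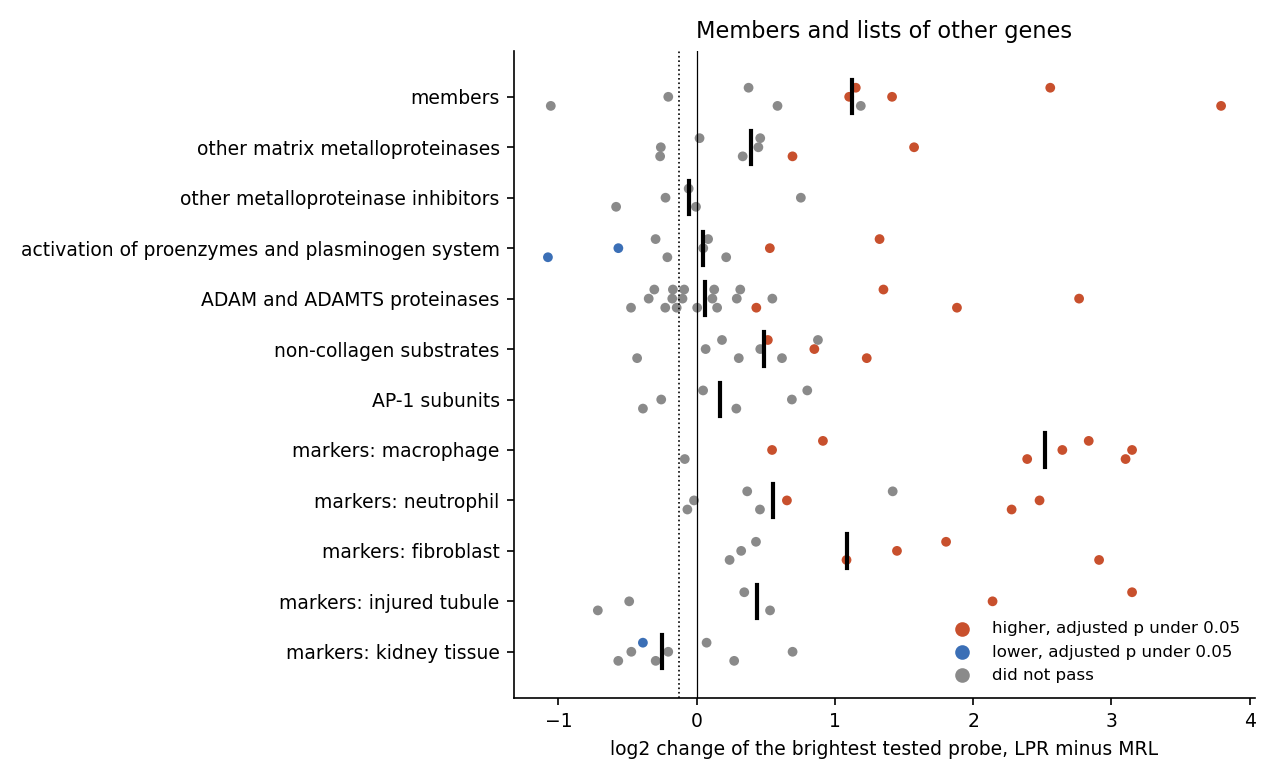
Each point is the log2 change (LPR minus MRL) of the brightest tested probe of a gene, in rows for the members, the lists of other genes of the system and the marker lists. Red and blue points were higher and lower at an adjusted p under 0.05, grey points did not pass, the short black bars are the medians of the rows, and the dotted line is the median of all genes, -0.12. The median of the members (1.13) lies above those of the other lists of the system, and that of the macrophage markers (2.52) is higher still.

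Markers of other cell types moved between the same groups. Of 8 macrophage markers 7 were higher, led by Lyz2 (8.88-fold), Cd68 (8.59-fold) and Adgre1 (7.14-fold), and their summed signal was 35 to 42.0 times the 75th percentile in MRL mice and 122 to 129 times in LPR mice. Of 7 fibroblast markers 4 were higher, with Thy1 (7.52-fold), Fap (3.49-fold) and Dpt (2.73-fold) as the largest rises, and the sum was 12.5 to 14.5 in MRL mice and 27.7 to 28.9 in LPR mice. Of 8 neutrophil markers 3 were higher (S100a8 5.58-fold, S100a9 4.85-fold and Mpo 1.57-fold), and the sum was 41.5 to 55.0 in MRL mice and 47.7 to 51.8 in LPR mice. Csf3r made up most of it, and without Csf3r the sum was 2.55 to 3.11 and 5.82 to 12.4. Of 6 markers of injured tubules Cd44 (8.88-fold) and Lcn2 (4.41-fold) were higher. Havcr1 (0.34, adjusted p = 0.340 from limma) and Krt20 (0.53, adjusted p = 0.377 from limma), given as log2 changes and named after their values were seen, did not pass. In the same list Krt18 (-0.49, adjusted p = 0.0673) and Sox9 (-0.72, adjusted p = 0.146), both named after their values were seen, had log2 changes below 0 that passed only before adjustment. The sum was 12.4 to 13.7 in MRL mice and 12.6 to 16.2 in LPR mice, and 2.16 to 2.66 and 4.52 to 7.80 without Krt18, its brightest gene. Cd44 and Lcn2 remain in this smaller sum, and the signal of a whole kidney does not tell which cells made them. Without their own brightest genes, Lyz2 and Col1a2, the macrophage sum was 26.6 to 34.3 and 42.1 to 46.1 and the fibroblast sum 4.56 to 5.15 and 10.4 to 10.8. Both fibroblast sums hold Thy1, whose mean log2 signal was -0.52 in MRL mice and 2.39 in LPR mice. In LPR mice it was the brightest gene of the list after Col1a2, and no sum was taken without it. Among these markers the call of Adgre1 was lost when any mouse other than MRL 3 was left out (adjusted p = 0.0686 to 0.0863), and that of Mpo when any mouse other than LPR 1 was left out (adjusted p = 0.0660 to 0.129).

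Of 8 markers of kidney tissue, Lrp2, the endocytic receptor megalin of the proximal tubule, fell by 0.39 on the log2 scale (adjusted p = 0.0492, and 0.0764 to 0.154 without any 1 mouse), and 7 did not pass. Of the 5 tested Lrp2 probes 1 was lower. Nphs1, named after its values were seen, had a log2 change of 0.69 (adjusted p = 0.0780). Their sum was 608 to 640 in MRL mice and 500 to 531 in LPR mice, and all 8 were measured in both groups, as the label kidney has it. Each marker was well above background on at least 1 array of each group. The macrophage marker Itgam (-0.09) and the fibroblast markers Pdgfra (0.24), Pdgfrb (0.32) and Postn (0.43), given as log2 changes and named after their values were seen, did not pass. Thy1, 1 of the 4 fibroblast markers that were higher, also marks T cells in mice. The 7 macrophage and 4 fibroblast markers that were higher rose in the same comparison as Mmp3, Mmp12, Mmp14, Mmp19 and Timp1, and their part in these changes was not tested.

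By the first digit of the array position in the array identifiers, which the labels do not name as a batch, MRL 1, 2 and 3 and LPR 1 shared a column of the slide, and LPR 2 and LPR 3 lay in the other. Within the shared column, LPR 1 minus the MRL mice gave a log2 difference of 3.92 for Mmp3, 2.67 for Timp1, 2.08 for Mmp12, 1.32 for Mmp14 and 1.05 for the junction probe of Timp2. It was 2.36 for A_66_P118835 of Mmp7 and 0.99 for the tested Mmp9 probe. These values rest on LPR 1 alone. The fit with the column as a block takes the spread from the other mice, assuming that LPR 1 varies as they do. Before the shift, LPR 1 had a 75th percentile of 942, against 706 to 759 on the other arrays. Its share of spots well above background was 73.5%, against 69.6% to 70.9%. The other column held LPR mice alone and gives no value.

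**Figure D5:**
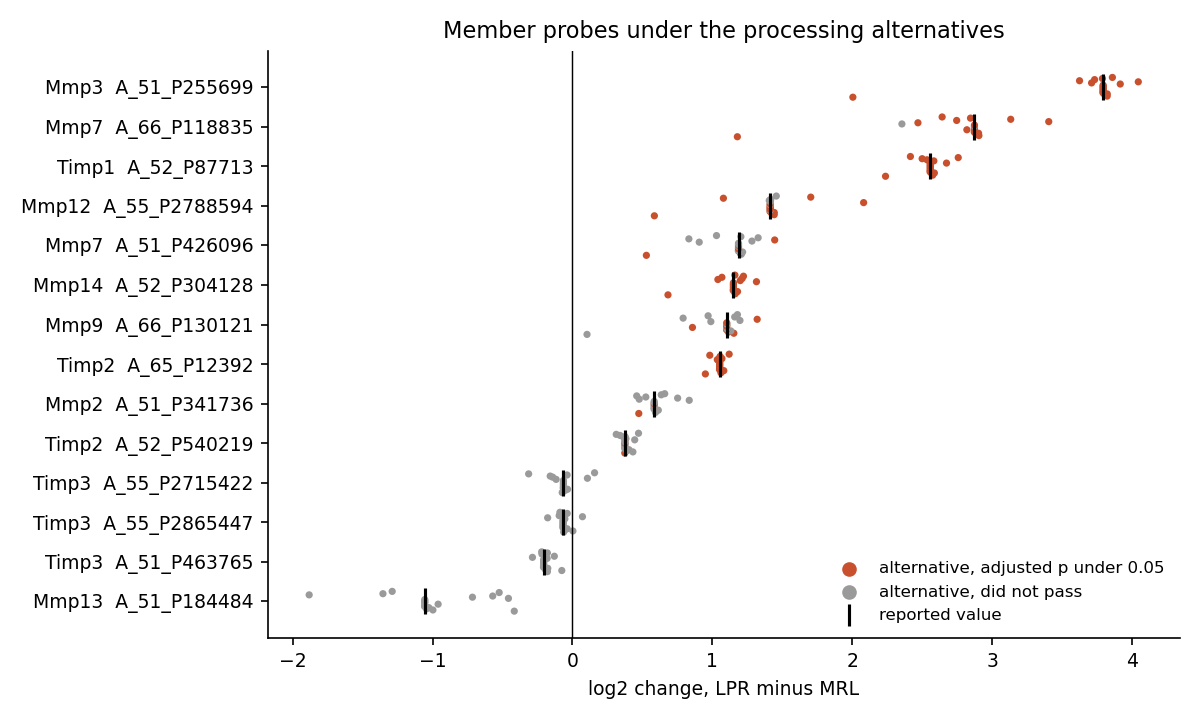
Log2 change (LPR minus MRL) of the 14 tested member probes as reported (black bar) and under each processing alternative, including leaving out each mouse (dots). Red dots passed an adjusted p of 0.05 and grey dots did not. All alternatives of Mmp3, Mmp14, Timp1 and the junction probe of Timp2 passed, those of Mmp9 and Mmp12 passed in part, and Mmp3 had its smallest value (2.00) with normexp correction.

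The plot of alternatives separates the members into those whose call held throughout and those near the threshold. Mmp3, Mmp14, Timp1 and the Timp2 junction probe passed under all 19 alternatives that were run. The calls of Mmp12, Mmp9 and A_66_P118835 of Mmp7 were lost under 6 of 19, 10 of 18 and 2 of 18. Mmp13 and the 3 Timp3 probes passed under none.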

How the data were processed

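RNA of 6 kidneys was labelled with Cy3 and hybridized to Agilent mouse arrays. The deposited intensities come from Agilent Feature Extraction 12.0.3.1, where the authors had background subtracted within each array and no normalization made between arrays. The deposited value table holds the same signals as a ratio to each array's 75th percentile, all spots included, and was used as an alternative. RNA isolation is given as TRIzol in the paper and as the RNeasy Mini Kit in the labels. Probe positions are those of the files (mm9), and promoter sequences are from RefSeq (GRCm38.p6). The members and the gene lists were chosen with earlier results of these data known.

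Control spots (leaving 59305 per array) and outlier spots (73 to 90 per array) were left out. Intensities were taken to log2, each array's 75th percentile (706 to 942) was subtracted, spots of 1 probe were averaged, and 39924 probes were tested with limma 3.58.1 in R 4.3.3. A gene is represented by its tested probe of highest mean signal, and signals of different probes were compared for this choice only. Named were all member probes and, from each other list, at most the 3 largest rises and 3 largest falls that passed without overlap of the groups. Mmp8, the other cluster genes and Syn3 were named for their position, and a few others, so marked, after their values were seen. After seeing the data, marker sums were also taken without the brightest gene of each list. Some results are not reported here, and their genes remain in the counts. With 3 mice a group the smallest p of an exact test is 0.1, and no such test was run. The number of arrays limits the precision.

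Alternatives were normexp correction (offset 50), quantile normalization, the authors' divided values, and a shift by the median or by the percentile of detected probes. Dim probes were all kept, kept only if detected on all 6 arrays, or floored at the detection limit. Outlier spots were kept, an intensity trend or the methods' t-test was used, the replicate number or the slide column was set as a block, the probes of a gene were averaged, and each mouse was left out. Data were simulated with 39916 probes, of which 200 were changed. There limma recovered 48 of 100 probes changed 2-fold and 92 of 100 changed 4-fold, with 6 false calls. The methods' t-test recovered 12 and 59, with 3 false calls. Far fewer probes were changed there than were called in the data, so these are not recovery rates of the reported comparison. The simulation used the seed 7, and matplotlib 3.10.9 drew the figures.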

Additional observations from a re-analysis of the deposited data

How the results depend on the processing

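The number of member genes higher in LPR mice (5) was 3 without a filter on dim probes and with the methods' t-test, 8 with an intensity trend, and 3 to 5 when 1 mouse was left out. The number of member probes higher (7) was 4 with the methods' t-test, 10 with an intensity trend, 9 with normexp correction, 8 with the median shift or the floor, and 5 to 7 without 1 mouse. No alternative gave a lower member gene or probe. Of the other genes of the system, 11 were higher, and 7 with the methods' t-test, 4 with the slide column as a block and 6 to 10 without 1 mouse. The 2 lower ones became 1 with a median shift, with the percentile over detected probes and with the slide column, 0 without a filter and with the methods' t-test, and 0 to 2 without 1 mouse. Among the tested member probes and the other genes recomputed under the alternatives, the direction turned for 2 Timp3 probes alone, at changes near 0 that passed nowhere: A_55_P2865447 was 0.0035 with quantile normalization and -0.18 to 0.072 without 1 mouse (0.072 without MRL 2), and A_55_P2715422 was -0.31 to 0.16 without 1 mouse (0.11 without MRL 1 and 0.16 without LPR 3). The causes of these shifts were not tested.

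Over all tested probes 2606 were higher and 2462 lower as reported, 1458 and 463 with the slide column as a block, and 2881 and 3481 with an intensity trend. The median shift gave 2613 and 1992, the percentile over detected probes 2647 and 1845, and normexp correction 2532 and 4498. Without a filter 2150 and 1093 were called, and with the methods' t-test 1736 and 1386. Leaving out 1 mouse gave 1958 to 2370 higher and 760 to 2269 lower.

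Mice of the same number were compared across the groups. Their deviations from the group means had correlations of 0.12, 0.02 and 0.01, and those of mice of different number -0.07 to 0.05. With 3 mice a group this cannot tell whether mice of the same number shared anything else. With the replicate number as a block, 7 member probes and 5 member genes were higher as before, and of the other genes 8 were higher and 0 lower. Over all probes 2199 were higher and 1117 lower. Probes at background in all MRL mice (those of Mmp9 and A_51_P313674 of Mmp12) give bounds at most. The Mmp13 probe, well above background in 2 of 3 mice of each group, gives a wide interval only.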
